A study of Ovis aries with 26 samples.

Results

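PRDM14, ZFP42, ESRRB, TBX3, UTF1 and DPPA4 are genes whose products help hold mouse embryonic stem cells, or germ cells and early embryos, in an unspecialised state, and they were followed here through sheep preimplantation development. They were chosen by name, 6 of the 30186 genes in the deposited expression table, and each occurred there as 1 entry. The study sequenced poly(A) RNA of sheep (Ovis aries) oocytes and embryos with the Smart-seq2 method, in which lysed material is copied into full-length cDNA and amplified. There were 26 libraries from 8 stages. Mature oocytes, arrested in metaphase of their second meiosis (MII), gave 2 libraries. Embryos made by fertilization in vitro and then grown in culture medium gave 4 libraries at the 2-cell stage (2C), 3 at 4-cell (4C), 4 at 8-cell (8C), 3 at 16-cell (16C), 3 of morulae, 3 of early blastocysts (EarlyB) and 4 of expanded blastocysts (ExpB). All material was untreated, and the labels give neither breed nor the number of oocytes or embryos in a library.

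In mouse embryonic stem cells these genes belong to the wider naive pluripotency network around the core factors POU5F1, NANOG and SOX2. PRDM14, ZFP42 (also known as REX1), ESRRB and TBX3 bind DNA in a sequence-specific way, whereas UTF1 and DPPA4 are chromatin-associated proteins. In the mouse blastocyst, several of these genes are also used outside the inner cell mass, for example ESRRB in the trophoblast lineage.

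Levels are FPKM, the number of sequenced fragments per kilobase of gene and per 1e6 fragments assigned to genes, and replicates are named by stage and number. Differences were fitted with limma on log2(FPKM + 1), later minus earlier stage, over 15766 genes that reached an FPKM of 1 in 2 or more libraries, and all 6 genes were among them. Rising and falling below mean a called change, that is a Benjamini-Hochberg adjusted p under 0.05 and a difference of at least 1 on that scale. Changes near or below an FPKM of 1 are understated by it. Nothing in the labels shows that replicates were separate cultures or animals, and a p-value therefore refers only to spread among the libraries, which may be technical spread.

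Reads assigned to genes, recovered from the steps of the deposited values, numbered 25.9 to 35.6 in units of 1e6 per library from MII to morula, 16.0 to 19.9 in early and 19.3 to 25.4 in expanded blastocysts. The library 16C 3 stood apart from its stage, with correlations of log2(FPKM + 1) down to 0.913 against the other 16C libraries, while the lowest such value within any other stage was 0.94. The summed FPKM of 8 oocyte genes, none of them at 0 in any stage, was 4120 to 4715 in MII libraries, 1723 to 2862 in 16C, 315 to 482 in morulae and 11.0 to 22.3 in ExpB. The sum of 14 trophectoderm genes in the table was 54.6 to 95.2 in 16C libraries, 388 to 654 in morulae, 2639 to 3326 in early blastocysts and 5015 to 9494 in ExpB, with CDX2 and ASCL2 at 0 in every 16C library. Most of it came from SLC2A3 at 16C (68.7 ± 19.8 FPKM) and from KRT8 in ExpB (4310 ± 1260 FPKM). The sum of 10 cumulus and granulosa cell genes was highest in 4C libraries (142 to 549), and that of 6 sperm genes never exceeded 12.9. In bulk samples such as these, fewer cells of a type and less RNA per cell cannot be told apart.

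The 6 genes reached their levels at different stages. PRDM14 and ZFP42 were near 0 through 8C and abundant at 16C. TBX3 first reached an FPKM of at least 1 at 16C, at a lower level than these, and rose again in morulae and in EarlyB. ESRRB had its largest step between 16C and morula, and UTF1 reached its level in early blastocysts. DPPA4 differed from the other 5 in that it had an FPKM of at least 1, still a low level, in both oocyte libraries. By the first stage at which every library had an FPKM of at least 1, PRDM14, ZFP42 and TBX3 were detected at 16C, ESRRB in morulae and UTF1 in EarlyB, and all 5 remained at or above it in every later library. Of all tested genes, 2.06% were first detected at 16C by the same criterion, 12.23% in morulae and 8.92% in EarlyB. The share for MII was 51.25%, and DPPA4 belonged to it, though some later libraries were below the limit. The mean level was highest at 16C for PRDM14, in morulae for ZFP42 and in EarlyB for ESRRB, TBX3, UTF1 and DPPA4. EarlyB was also the stage of the highest mean for 27.7% of all tested genes.

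**Figure D1:**
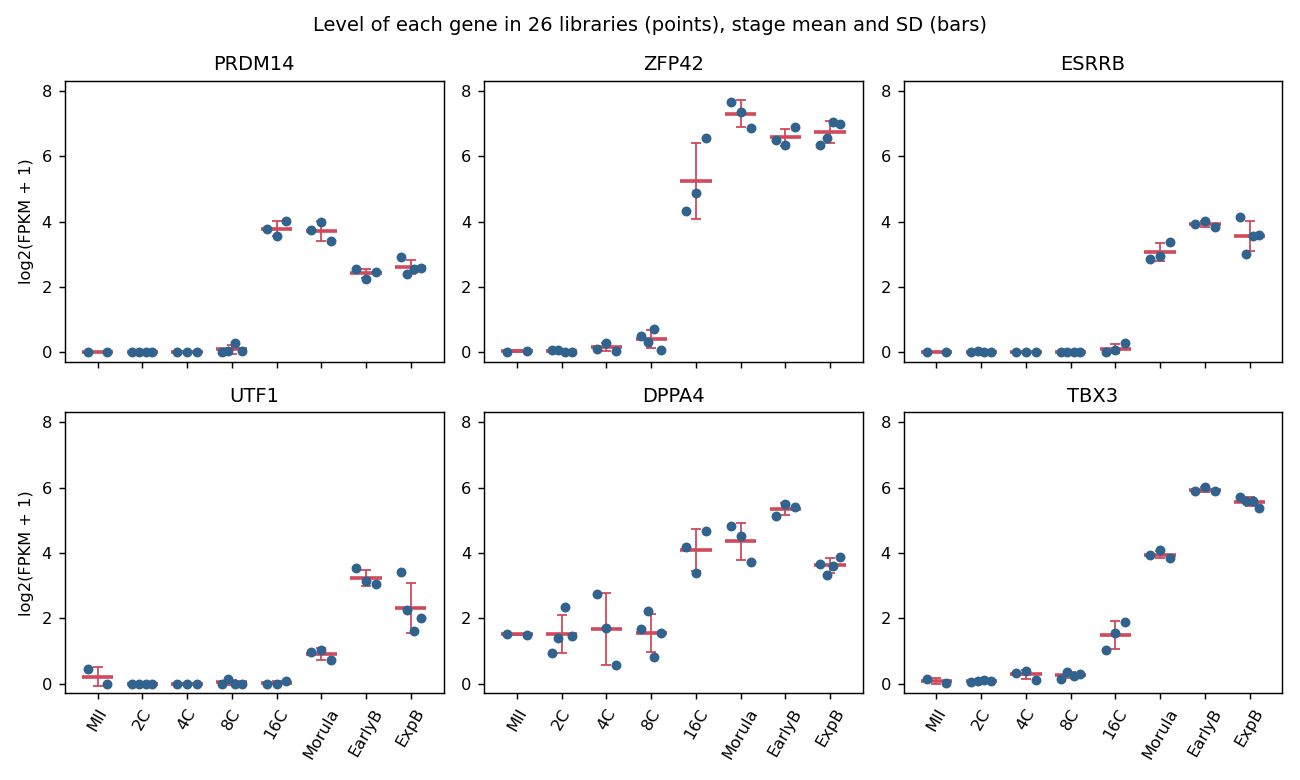
Level of each gene in the 26 libraries, as log2(FPKM + 1), by stage. Points are libraries, horizontal bars are stage means and vertical bars are SD over the 2 to 4 libraries of a stage. PRDM14 and ZFP42 step up at 16C, ESRRB and TBX3 between 16C and morula, UTF1 at EarlyB, and DPPA4 starts near 1.85 FPKM in oocytes.

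PRDM14 encodes a PR domain zinc finger protein which, in mouse, represses genes of fibroblast growth factor signalling and DNA methylation and is needed for germ cell formation. No PRDM14 read was recovered from any of the 9 MII, 2C and 4C libraries, and the 8C libraries held 0, 2, 11 and 1 reads, or 0, 0.0345, 0.209 and 0.0172 FPKM. The 3 reads that set the detection limit would have given 0.0493 to 0.0645 FPKM in the 10 libraries at 0, which covers counting error only. At 16C the level was 12.7, 10.7 and 15.0 FPKM, and in morulae it was 12.3, 14.9 and 9.60 FPKM. The 16C libraries lay far above all 8C libraries, and the ranges of morulae and 16C overlapped.

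Mean PRDM14 was 12.8 ± 2.17 FPKM at 16C (SD, n = 3) against 0.0652 ± 0.097 FPKM at 8C (n = 4), a ratio of 196 that rests on 14 reads at 8C. The difference was 3.69 ± 0.16 on the log2(FPKM + 1) scale (standard error, limma adjusted p = 1.4e-13), and 3.57 without the library 16C 3. Between morula and 16C the difference was -0.06 (adjusted p = 0.76). In early blastocysts PRDM14 was lower again, at 4.81, 3.75 and 4.47 FPKM, and expanded blastocysts held 6.6, 4.23, 4.86 and 4.99 FPKM. Every blastocyst library was below every morula. The fall in EarlyB relative to morulae was -1.30 ± 0.17 (limma adjusted p = 1.9e-06), to 35.4% of the morula mean, and no further change was called between ExpB and EarlyB (0.20, adjusted p = 0.34). In ExpB against morulae the fall was -1.10 ± 0.16 (limma adjusted p = 3.6e-06). That last difference lies close to the limit of 1 and was -0.85 after median-ratio scaling, -0.93 after quantile normalization and -0.96 without Morula 2, which ended the call each time.

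ZFP42 encodes a zinc finger protein of the YY1 family and is a standard marker of naive mouse embryonic stem cells. It was the most abundant of the 6 genes from 16C onward. Before 16C it did not exceed 0.645 FPKM in any library, and its reads summed to 4 in MII, 10 in 2C, 29 in 4C and 120 in 8C libraries. The 8C libraries had 0.421, 0.254, 0.645 and 0.0441 FPKM. At 16C the values were 18.9, 28.3 and 92.5 FPKM, with 16C 3 well above both others. Morulae had 203, 164 and 116 FPKM, all above the 16C libraries.

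The ZFP42 mean of 46.6 ± 40.1 FPKM at 16C (n = 3) stood against 0.341 ± 0.255 FPKM at 8C (n = 4), a difference of 4.84 ± 0.33 (limma adjusted p = 4.5e-10), and of 4.19 without 16C 3. In morulae the mean was 161 ± 43.8 FPKM, a rise of 2.06 ± 0.35 relative to 16C (limma adjusted p = 2.8e-05), and of 2.71 without 16C 3. Early blastocysts had 89.0, 80.9 and 117 FPKM, and expanded blastocysts had 79.6, 94.0, 130 and 125 FPKM. Both ranges overlapped that of morulae. The differences of -0.73 (EarlyB minus morula, adjusted p = 0.097) and -0.57 (ExpB minus morula, adjusted p = 0.15) did not pass the test.

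ESRRB encodes an orphan nuclear receptor that in mouse acts downstream of Wnt signalling and NANOG in embryonic stem cells. It was the gene with the sharpest boundary between 16C and morula. Its reads summed to 0 in MII, 6 in 2C, 0 in 4C and 4 in 8C libraries. The 16C libraries had 0, 0.0382 and 0.204 FPKM, from 0, 6 and 34 reads. Morulae had 6.25, 6.74 and 9.36 FPKM, EarlyB had 14.1, 15.0 and 13.2 FPKM, and ExpB had 16.6, 7.05, 10.8 and 11.0 FPKM. Morulae lay above all 16C libraries and EarlyB above all morulae, whereas the ExpB range took in that of EarlyB.

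The mean of ESRRB was 7.45 ± 1.67 FPKM in morulae (n = 3) against 0.0809 ± 0.109 FPKM at 16C (n = 3), a difference of 2.95 ± 0.19 (limma adjusted p = 5e-11). The further difference in EarlyB relative to morulae was 0.85 ± 0.19 with an adjusted p of 0.00099, below the limit on size. Without Morula 3, the morula with the highest ESRRB, it was 1.01 and was called. The ExpB mean was 11.3 ± 3.93 FPKM and the EarlyB mean 14.1 ± 0.911 FPKM. Their difference of -0.35 (adjusted p = 0.14) became 0.01 after median-ratio scaling.

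TBX3 encodes a T-box transcription factor that in mouse embryonic stem cells supports self-renewal and is also used in extraembryonic endoderm. It climbed over more stages than any other of the 6 genes. It was low before 16C but had reads in every library. Values were 0.113 and 0.0124 FPKM in MII (15 and 2 reads), 0.0233 to 0.0752 FPKM in 2C, 0.0801 to 0.309 FPKM in 4C and 0.104 to 0.278 FPKM in 8C libraries. At 16C it was 1.05, 1.9 and 2.68 FPKM, and in morulae 14.2, 15.9 and 13.4 FPKM. EarlyB libraries had 57.9, 63.5 and 58.4 FPKM, and ExpB libraries had 51.6, 47.2, 47.2 and 40.5 FPKM. From 8C through ExpB, no library of 1 stage overlapped the next.

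The TBX3 rise at 16C relative to 8C was 1.23 ± 0.16 (limma adjusted p = 8.7e-06), and 1.03 without 16C 3. Mean levels were 1.88 ± 0.817 FPKM at 16C (n = 3) and 0.196 ± 0.0736 FPKM at 8C (n = 4). In morulae (14.5 ± 1.27 FPKM) the rise relative to 16C was 2.47 ± 0.17 (limma adjusted p = 1.1e-10). In EarlyB (59.9 ± 3.11 FPKM) the rise relative to morulae was 1.98 ± 0.17 (limma adjusted p = 7.8e-09). In ExpB the mean was 46.6 ± 4.56 FPKM, and the difference of -0.36 relative to EarlyB did not pass (adjusted p = 0.08). It was close to the median of all tested genes in that contrast, -0.30, and became 0.017 after median-ratio scaling.

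UTF1 encodes a chromatin-associated protein that restrains differentiation genes in mouse embryonic stem cells. It appeared last. All 4C and 2C libraries were at 0, and 1 MII library held 11 reads (0.348 FPKM) while the other held none. The only other values before morula were 0.102 FPKM in 8C 2 from 4 reads and 0.0535 FPKM in 16C 3 from 2 reads. A level of 0 had a limit of 0.0726 to 0.085 FPKM, the value of 3 reads. Morulae had 0.970, 1.05 and 0.632 FPKM from 19 to 37 reads. EarlyB libraries had 10.5, 7.88 and 7.18 FPKM. ExpB libraries had 9.62, 3.76, 2.08 and 3.04 FPKM, of which only ExpB 1 reached the EarlyB range.

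UTF1 averaged 8.52 ± 1.74 FPKM in EarlyB (n = 3) against 0.883 ± 0.221 FPKM in morulae (n = 3), a difference of 2.33 ± 0.27 (limma adjusted p = 3.9e-07). Morulae did not overlap with 16C libraries, and their difference of 0.88 ± 0.27 had an adjusted p of 0.0069 but stayed under the limit on size. It passed with a pseudocount of 0.1 (3.06), on a TPM scale with equal library sums (1.23) and in limma-voom on recovered reads (5.28). ExpB averaged 4.63 ± 3.40 FPKM, and the difference from EarlyB of -0.91 ± 0.25 (adjusted p = 0.0062) was also under the limit. Without ExpB 1 it was -1.27, and without EarlyB 3 it was -1.01, and both were called. ExpB remained above morulae by 1.42 ± 0.25 (limma adjusted p = 5.1e-05).

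DPPA4 encodes a SAP domain protein that in mouse works with DPPA2 at early embryonic and bivalent promoters. It was the only one of the 6 genes with an FPKM of at least 1 in both oocyte libraries, as had 51.25% of all tested genes. The DPPA4 values there were 1.88 and 1.82 FPKM from 46 to 54 reads. Levels then varied widely within stages, with 0.914, 1.62, 4.04 and 1.72 FPKM in 2C, 5.69, 2.24 and 0.470 FPKM in 4C and 2.16, 3.70, 0.759 and 1.9 FPKM in 8C. All these stages overlapped. At 16C the values were 17.1, 9.51 and 24.5 FPKM, above every earlier library, and morulae with 27.4, 21.8 and 12.2 FPKM overlapped them. EarlyB libraries had 34.0, 44.3 and 41.0 FPKM, the highest of all, and ExpB libraries had 11.7, 9.0, 11.2 and 13.6 FPKM.

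The DPPA4 mean was 17.0 ± 7.51 FPKM at 16C (n = 3) against 2.13 ± 1.21 FPKM at 8C (n = 4), a rise of 2.52 ± 0.41 (limma adjusted p = 0.00015), and of 2.23 without 16C 3. Between morula and 16C the difference was 0.27 (adjusted p = 0.61). EarlyB libraries did not overlap with morulae, but the difference of 0.99 ± 0.44 missed both limits (adjusted p = 0.07). It was called after quantile normalization (1.24), in limma-voom (1.01) and without Morula 1 (1.23). In ExpB the gene fell to 11.4 ± 1.88 FPKM (n = 4), against 39.8 ± 5.25 FPKM in EarlyB (n = 3), by 1.73 ± 0.41 on the log2 scale (limma adjusted p = 0.002). It was the only one of the 6 genes with a called fall between these stages.

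**Figure D2:**
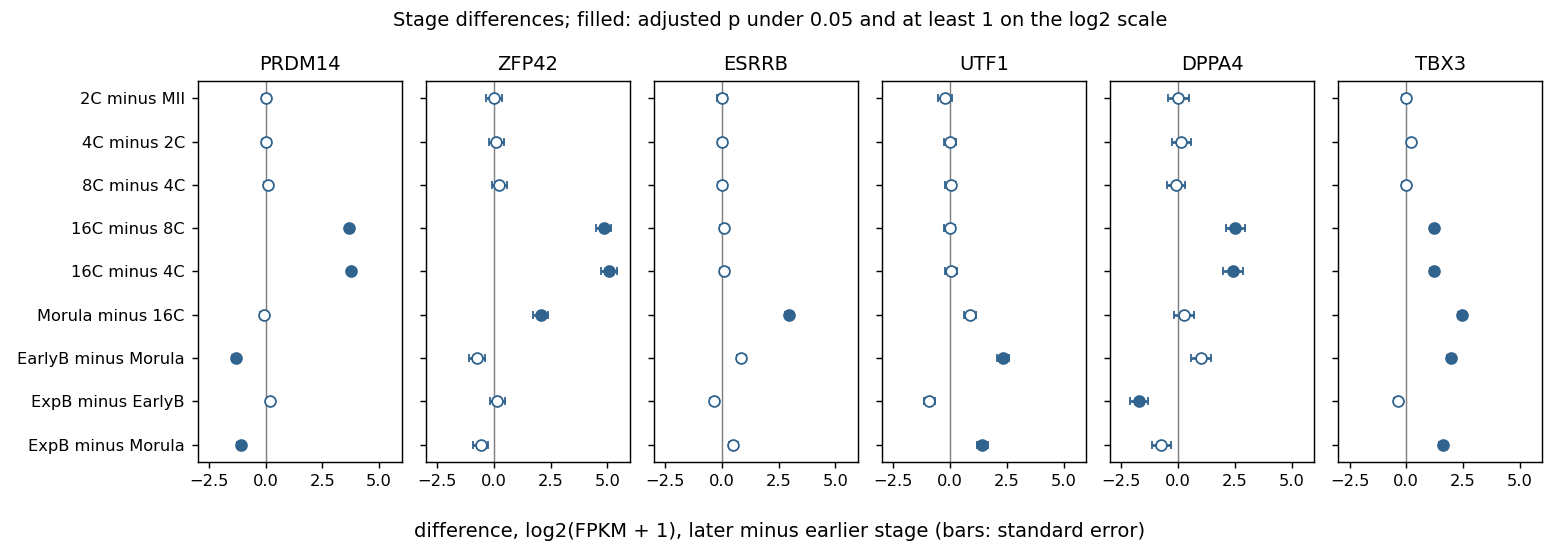
Difference of each gene between 2 stages on the log2(FPKM + 1) scale, later minus earlier, with standard errors as bars. Filled points were called changed, 18 of 54 in all. The filled points of PRDM14 and ZFP42 lead at 16C, that of ESRRB in morulae and that of UTF1 in EarlyB, and filled points left of 0 belong to PRDM14 after morula and to DPPA4 in ExpB.

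Set against all tested genes, none of the 6 was called in 2C against MII, where 6.45% of genes were called, in 4C against 2C (0.00634%, 1 gene) or in 8C against 4C (0.907%). Limma gave an unadjusted p under 0.05 to 1329 genes in 4C against 2C and 2460 in 8C against 4C. In 16C against 8C, 4 of the 6 rose (PRDM14, ZFP42, DPPA4 and TBX3), where 5.54% of all tested genes rose and 7.55% were called. The median difference of the 6 was 1.87, beside -0.04 over all tested genes. In 16C against 4C the same 4 rose, by 3.78, 5.09, 2.42 and 1.20, beside 5.35% of all tested genes higher and 8.18% called. When only these 2 stages entered the fit, the DPPA4 and TBX3 differences kept their size but had adjusted p-values of 0.18 and 0.099.

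In morulae against 16C, 3 of the 6 rose (ESRRB, TBX3 and ZFP42), in a contrast in which 28.1% of all tested genes rose and 43.1% were called. The medians were 1.47 for the 6 and 0.32 for all tested genes. That overall shift was 0.18 on the TPM scale, 0.19 after median-ratio scaling and 0.02 after quantile normalization, and called genes that were higher made up 65.2%, 54.9%, 57.6% and 49.0% of calls in that order, beginning with the deposited scale. In EarlyB against morulae, UTF1 and TBX3 rose and PRDM14 fell, beside 14.7% of all genes higher and 12.4% lower (27.0% called). In ExpB against EarlyB, DPPA4 alone of the 6 was called, lower, beside 13.1% of all genes lower and 17.7% called. The median of all genes there, -0.30, moved to -0.08 after median-ratio scaling and to -0.03 after quantile normalization, and the share of calls that were higher moved to 57.2% and 54.5%, from 26.2% as deposited. In ExpB against morulae, TBX3 (1.62) and UTF1 (1.42) rose and PRDM14 fell, beside 12.1% of all genes higher, 21.8% lower and 33.9% called. Each of these called differences kept its sign under every alternative run.

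The core factors and close relatives of the network gave the frame for these timings. POU5F1, the central pluripotency factor, was at 2.59 ± 0.923 FPKM at 16C (n = 3). It rose to 16.2 ± 4.82 FPKM in morulae, by 2.26 relative to 16C (limma adjusted p = 2.21e-07), and to 48.0 ± 6.27 FPKM in EarlyB, by 1.54 relative to morulae. NANOG was at 2.68 ± 0.26 FPKM in morulae and 1.37 ± 0.536 FPKM in EarlyB, and rose to 19.6 ± 7.67 FPKM in ExpB, a difference of 3.06 ± 0.342 relative to EarlyB (limma adjusted p = 4.91e-07). SOX2 was at 0.0598 ± 0.0952 FPKM in ExpB against 1.36 ± 0.123 FPKM in EarlyB, a fall of -1.16 that was -0.95 after median-ratio scaling and -0.68 after quantile normalization, where it was not called. All 6 genes had their highest stage mean by EarlyB, and NANOG had its own in ExpB.

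TFAP2C, a factor of naive human cells and of trophectoderm, was at 16.3 ± 3.71 FPKM at 16C (n = 3) against 0.0472 ± 0.0192 FPKM at 8C (n = 4), a rise of 4.02 ± 0.152 (limma adjusted p = 1.23e-14). KLF17, known from human naive cells, was at 58.6 ± 10.6 FPKM at 16C against 1.18 ± 0.794 FPKM at 8C, rising by 4.83. In EarlyB it fell to 6.34 ± 4.99 FPKM, against 60.7 ± 22.2 FPKM in morulae. Of the 6 genes, only PRDM14 was called lower in the same contrast. TFCP2L1, a mouse naive factor, was at 3.37 ± 1.42 FPKM in morulae against 0.194 ± 0.166 FPKM at 16C, a rise of 1.82 ± 0.183 (limma adjusted p = 2.08e-08). DPPA2, the partner of DPPA4, was at 0 in every MII, 2C and 4C library. It averaged 4.89 ± 6.44 FPKM at 16C, with 12.3 FPKM in 1 library and at most 1.62 FPKM in both others. Its rise of 1.95 relative to 8C was 1.07 without 16C 3, and the call ended when only both stages were fitted (adjusted p = 0.19). DPPA2 was at 21.4 ± 4.95 FPKM in ExpB and 24.7 ± 2.94 FPKM in EarlyB, a difference of -0.22 that did not pass (adjusted p = 0.715), in the contrast in which DPPA4 fell. Whether the DPPA2 and DPPA4 differences differ was not tested.

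**Figure D3:**
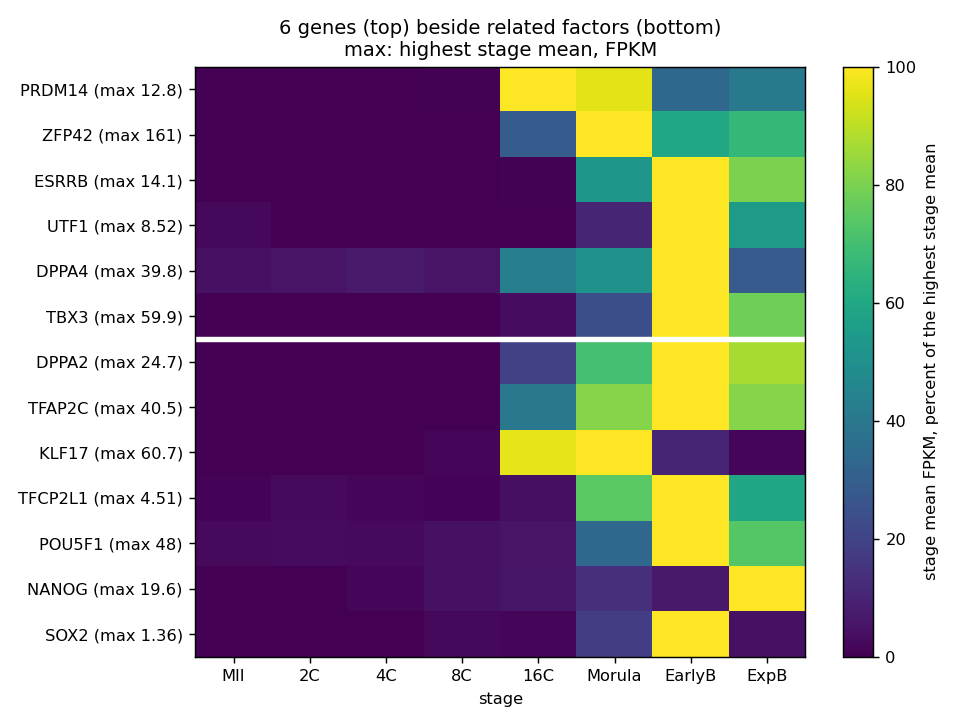
Stage mean FPKM of the 6 genes (top) and of 7 related factors (bottom) as a percent of each gene's highest stage mean, which is printed beside its name. PRDM14 and KLF17 are above 95% of their peak at both 16C and morula, and NANOG alone peaks in ExpB.

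A list of 32 other naive pluripotency genes, of which 29 were in the table and 20 were tested, moved in both directions. In 16C against 8C, 4 rose, among them KLF17, TFAP2C and DPPA2, and 1 fell (STAT3, named after its values were seen, and not called after median-ratio scaling), beside 5.54% of all tested genes higher and 2.01% lower. In morulae against 16C, 7 rose and 4 fell (6 fell on the TPM scale), beside 28.1% and 15.0% of all tested genes. KLF5, a Krüppel-like factor, was at 102 ± 42.7 FPKM in morulae and 10.5 ± 4.44 FPKM at 16C, and TDGF1, a NODAL co-receptor, was at 6.96 ± 5.80 FPKM in morulae and 0 in every 16C library. In EarlyB against morulae, where 14.7% of all tested genes were higher and 12.4% lower, 7 rose and 3 fell. On the TPM scale or after median-ratio scaling, 5 rose and 3 fell. The list was led by the fall of KLF17 and the rise of JADE1, a histone acetyltransferase subunit (30.1 ± 5.82 FPKM in EarlyB and 2.68 ± 0.579 FPKM in morulae). In ExpB against EarlyB, where 4.65% of all tested genes were higher and 13.1% lower, 0 rose and 4 fell, among them KLF4 (10.8 ± 2.07 FPKM in ExpB and 55.1 ± 6.40 FPKM in EarlyB, difference -2.26, limma adjusted p = 3.16e-08). With quantile normalization that count became 2 higher and 3 lower. The medians of the list in these 4 contrasts were 0.21, 0.43, 0.34 and -0.02, beside -0.04, 0.32, 0.03 and -0.30 over all tested genes.

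Of 19 formative or primed genes, which mark the later, post-implantation type of pluripotency, 12 were tested. OTX2, a homeobox factor, was the one that rose in 16C against 8C, at 12.8 ± 9.55 FPKM at 16C and 0.388 ± 0.278 FPKM at 8C, and none fell (1 on the TPM scale). In morulae against 16C, where 28.1% of all tested genes rose and 15.0% fell, 1 of the 12 rose (DNMT3A) and 3 fell, or 6 with quantile normalization, among them LEF1, a Wnt effector, at 5.45 ± 2.33 FPKM in morulae and 32.7 ± 13.3 FPKM at 16C. In EarlyB against morulae 3 rose and 2 fell, beside 14.7% and 12.4% of all tested genes. DNMT3B, a de novo DNA methyltransferase, had 27.3 ± 5.72 FPKM in EarlyB and 1.45 ± 0.474 FPKM in morulae, and TCF7L1, a repressor of Wnt targets, had 4.02 ± 0.388 FPKM in EarlyB and 0.217 ± 0.146 FPKM in morulae. In ExpB against EarlyB 1 rose and 1 fell, beside 4.65% and 13.1% of all tested genes. Quantile normalization gave 4 higher and 0 lower, and median-ratio scaling 2 and 1. The median difference was 0.302 for the list and -0.303 for all tested genes. The fall was that of LEF1, by 1.43, a call that ended with quantile normalization (-0.89). In ExpB against morulae 6 rose and 3 fell (2 with median-ratio or quantile scaling), beside 12.1% and 21.8% of all tested genes, and DUSP6, a feedback gene of fibroblast growth factor signalling, was at 15.6 ± 2.52 FPKM in ExpB and 2.40 ± 0.977 FPKM in morulae.

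Among 17 partners and regulated genes of PRDM14 known in mouse, 14 were tested. In 16C against 8C, the contrast in which PRDM14 rose, 2 rose and 0 fell (1 on the TPM scale), namely TFAP2C and EED, a Polycomb subunit, beside 5.54% of all tested genes higher. EED was at 77.6 ± 74.1 FPKM at 16C and 7.30 ± 4.01 FPKM at 8C, and the difference of 3.02 had an adjusted p of 0.1 when only both stages were fitted. In morulae against 16C, 4 of the 14 rose and 1 fell, beside 28.1% of all tested genes higher and 15.0% lower, so the share that rose was near that of all genes. With quantile normalization 3 rose and 5 fell, and median-ratio scaling gave 2 and 4. The leading ones were TET1, a dioxygenase acting on 5-methylcytosine (57.1 ± 11.7 FPKM in morulae and 8.20 ± 5.24 FPKM at 16C), DNMT3A, a de novo DNA methyltransferase (66.9 ± 11.8 FPKM in morulae and 11.7 ± 3.13 FPKM at 16C), and UHRF1, a maintenance methylation factor, which fell to 7.22 ± 2.88 FPKM in morulae, against 45.5 ± 19.2 FPKM at 16C. In EarlyB against morulae, where PRDM14 fell, 3 rose, namely DNMT3B, TET2 and EHMT1 (named after its values were seen), and EED fell by 1.52, a call that ended without Morula 3 (-1.22) and without EarlyB 2 (-1.44). Of all tested genes, 14.7% were higher and 12.4% lower there, and quantile normalization gave 5 of the list higher and 1 lower. In ExpB against EarlyB 2 fell, beside 13.1% of all tested genes (CBFA2T2 and EZH2, named after their values were seen), and neither was called under either of these scalings. TET2, a relative of TET1, had 8.68 ± 2.04 FPKM in EarlyB and 2.52 ± 0.692 FPKM in morulae. CBFA2T2, the corepressor that binds PRDM14 in mouse, was at 1.88 ± 0.267 FPKM in ExpB and 10.8 ± 1.64 FPKM in morulae, a fall of -2.03 ± 0.208 (limma adjusted p = 2.53e-08).

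Family relatives of the 6 genes were examined in the same way. These lists are short, and their calls are to be read beside the shares of all tested genes. In 16C against 8C, 5.54% rose and 2.01% fell, and in morulae against 16C 28.1% and 15.0%. In EarlyB against morulae the shares were 14.7% and 12.4%, and in ExpB against morulae 12.1% and 21.8%. Of 8 tested PRDM genes other than PRDM14, only PRDM10 rose at 16C, to 3.23 ± 0.238 FPKM at 16C, against 0.0542 ± 0.0449 FPKM at 8C. MECOM was at 0.298 ± 0.406 FPKM in morulae and 3.35 ± 2.08 FPKM at 16C, a fall of -1.68. PRDM2 fell to 1.54 ± 0.436 FPKM in ExpB, against 5.33 ± 2.31 FPKM in morulae, a call that ended without Morula 2 (-0.99). Of the 2 YY1 family genes, YY1 rose to 58.1 ± 17.6 FPKM at 16C, against 22.1 ± 2.92 FPKM at 8C, and YY2 rose to 3.13 ± 0.869 FPKM in EarlyB, against 0.374 ± 0.329 FPKM in morulae. ESRRG, a close relative of ESRRB, fell in morulae against 16C, the contrast in which ESRRB rose, to 14.4 ± 4.02 FPKM in morulae, against 33.4 ± 15.8 FPKM at 16C (difference -1.08, limma adjusted p = 0.00273). That call ended without 16C 1 (-0.76) and without Morula 3 (-0.89), and on fitting only these stages. NCOA3, a coactivator that binds ESRRB in mouse, fell to 11.4 ± 0.595 FPKM at 16C, against 29.7 ± 6.02 FPKM at 8C. ESRRA had 1.66 ± 0.754 FPKM in EarlyB and 0.29 ± 0.229 FPKM in morulae, a rise of 1.02 that was 0.86 after median-ratio scaling and 0.69 after quantile normalization, without a call, and its call also ended without Morula 1, Morula 2 or EarlyB 2 (0.96, 0.94 and 0.82). Of 14 other T-box genes 5 were tested, and the called ones were MGA and TBR1. MGA rose to 18.7 ± 0.903 FPKM in morulae, against 5.33 ± 2.94 FPKM at 16C, and its rise of 1.03 in 16C against 8C was 0.68 without 16C 3 and 0.97 with quantile normalization, neither called. The TBR1 difference of 1.16 in 16C against 8C was not called without 16C 2 (0.62, adjusted p = 0.18) or when only both stages were fitted (adjusted p = 0.21). DPPA3 and DPPA5 were not analysed here.

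Across the 26 libraries the 6 profiles fell along this order of onset. These correlations of log2(FPKM + 1) are descriptions, since libraries share stage, depth and denominator. PRDM14 was most like ZFP42 among the other members (Pearson r = 0.931) and least like UTF1 (0.472). ESRRB and TBX3 were alike (0.977), and both had r = 0.981 with POU5F1. UTF1 had 0.918 with TBX3 and 0.909 with ESRRB. ZFP42 had 0.987 with TFAP2C and 0.963 with DPPA2. DPPA4 had its highest value among these genes with TFAP2C (0.9) and ZFP42 (0.895), above its value with its partner DPPA2 (0.868). Among the 6 genes, SOX2 had its lowest values with PRDM14 (0.343) and ZFP42 (0.501).

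**Figure D4:**
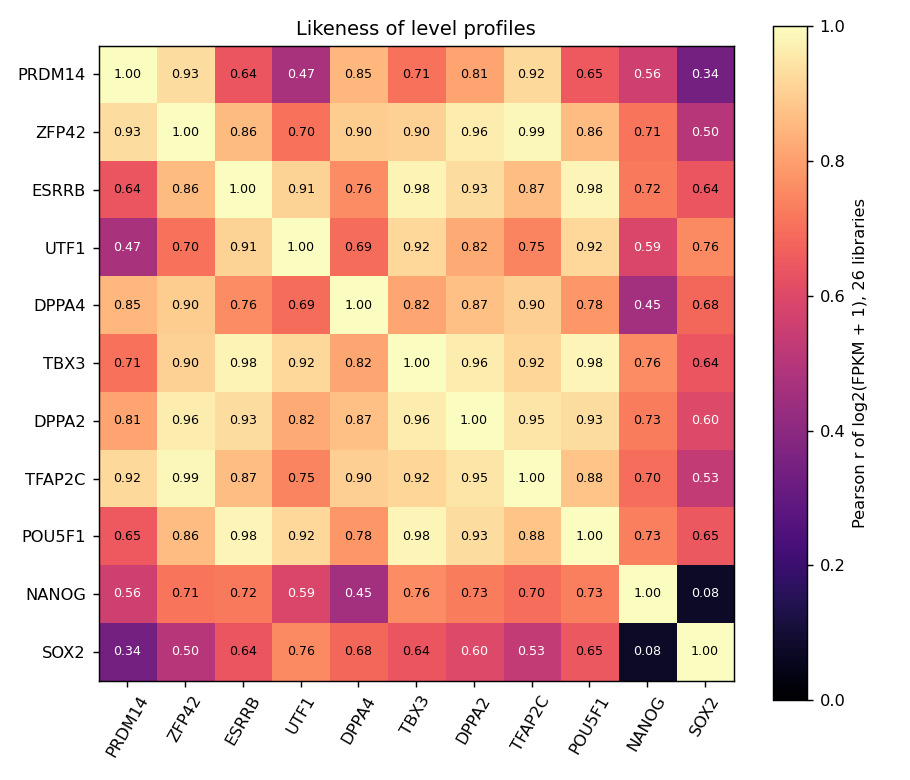
Pearson r of log2(FPKM + 1) over 26 libraries between the 6 genes and 5 related factors. The most alike pair among the 6 genes is ESRRB and TBX3 (0.977), the least alike is PRDM14 and UTF1 (0.472), and among the 6 genes SOX2 stands lowest against PRDM14 (0.343).

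Searching all tested genes for the nearest profiles gave PRDM14 the companions SAP18, a subunit of histone deacetylase and splicing complexes (r = 0.98), DENND2C (0.964) and the translation release factor ETF1 (0.964). SAP18 was at 42.5 ± 8.00 FPKM at 8C, 450 ± 115 FPKM at 16C and 690 ± 223 FPKM in morulae. ZFP42 was nearest to the RNA-binding proteins HNRNPAB (0.989) and HNRNPA1 (0.985), with TFAP2C (0.987) between them. ESRRB was nearest to PHLDA3 (0.993), the growth factor receptor FGFR3 (0.992) and the proton pump subunit ATP6V1C2 (0.992). PHLDA3 was at 18.1 ± 6.79 FPKM in morulae and 0.0251 ± 0.0172 FPKM at 16C. TBX3 was nearest to RIMKLB (0.992), GPRC5C (0.992) and DLC1 (0.991), and RIMKLB was at 265 ± 13.2 FPKM in EarlyB and 52.7 ± 9.22 FPKM in morulae. UTF1 was nearest to CHCHD10 (0.985), PLCB3 (0.984) and MICALL2 (0.98). DPPA4 had the weakest matches, DIS3L (0.931), LCORL (0.93) and TASP1 (0.924). With Spearman's rho in place of Pearson's r, SAP18 remained among the first 3 for PRDM14 and RIMKLB for TBX3, and for the other 4 genes no name was shared.

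FPKM is divided by gene length, but other differences between genes in how their reads are counted are not removed. The order of the 6 levels is therefore a description. It was clearest in early blastocysts: ZFP42, TBX3, DPPA4, ESRRB, UTF1 and PRDM14 from high to low, with no library of 1 gene overlapping the next. At 16C the ranges of ZFP42 and DPPA4, of DPPA4 and PRDM14 and of ESRRB and UTF1 overlapped. In expanded blastocysts DPPA4 overlapped with ESRRB, and PRDM14 with UTF1.

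Some libraries deviated from their stage in several of the genes at once. At 16C, replicate 3 had the highest value of all 6 genes and of DPPA2. It was above its stage mean by 1.30 for ZFP42, 0.59 for DPPA4 and 0.40 for TBX3 on the log2(FPKM + 1) scale. Its oocyte gene sum of 1723 FPKM was below those of both other 16C libraries, 2862 and 2623 FPKM, and its trophectoderm sum of 95.2 FPKM was above theirs, 54.6 and 87.2 FPKM. Most of the trophectoderm sum at 16C came from SLC2A3 (68.7 ± 19.8 FPKM), so there it does not measure the list as a whole. The part of either sum in these levels was not tested. Among morulae, replicate 3 had the lowest value of 5 genes and the highest of ESRRB. It also had the highest oocyte sum of its stage (482 FPKM) and the lowest trophectoderm sum (388 FPKM).

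In expanded blastocysts, ExpB 1 was the highest of its stage for PRDM14, ESRRB, UTF1 and TBX3 and the lowest for ZFP42. It lay above its stage mean by 1.08 for UTF1 and 0.57 for ESRRB. The same library had the highest trophectoderm sum, 9494 FPKM, where ExpB 2, lowest for ESRRB, had 5015 FPKM. ExpB 3 and ExpB 4 had sums of 8191 and 6831 FPKM, with ESRRB at 10.8 and 11.0 FPKM. UTF1 was lowest in ExpB 3 (2.08 FPKM), next to 3.04 FPKM in ExpB 4. KRT8 made up most of the trophectoderm sum in ExpB (4310 ± 1260 FPKM). A relation of the 6 genes to the sum was not tested. Between EarlyB and ExpB, as DPPA4 fell, 6 of 13 tested trophectoderm genes rose and 2 fell, beside 4.65% of all tested genes higher and 13.1% lower, with none of the 14 at 0 in ExpB. The sum of 15 primitive endoderm genes was 878 to 1100 FPKM in ExpB and 485 to 572 FPKM in EarlyB, and 3 of its 13 tested genes rose, or 5 on the TPM scale and with quantile normalization. Most of that sum in ExpB came from DAB2 (624 ± 110 FPKM), which is on the trophectoderm list as well, so the sums are not separate measures. The sum of 8 inner cell mass genes was 173 to 259 FPKM in ExpB and 142 to 219 FPKM in EarlyB. It was already 139 to 193 FPKM in MII, with NANOG, SOX2, FGF4, TDGF1 and KLF17 at 0, so it does not measure inner cell mass alone. Of 7 tested genes of this list, 1 rose (NANOG) and 2 fell (KLF17 and SOX2) in ExpB against EarlyB. The SOX2 call ended with median-ratio and quantile scaling. Whether a changing mix of cell types had a part in the DPPA4 fall was not tested.

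**Figure D5:**
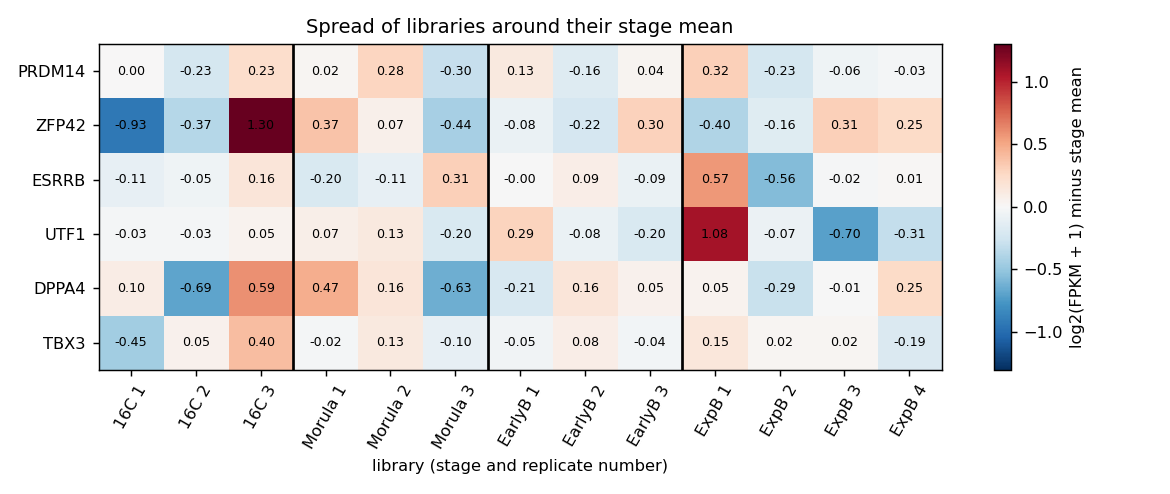
Deviation of each library from its stage mean, on the log2(FPKM + 1) scale, for the 6 genes from 16C to ExpB. Red is above and blue below the mean. 16C 3 is above it for all 6 genes, with 1.30 for ZFP42, and ExpB 1 is above it by 1.08 for UTF1.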

How the data were processed

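The authors deposited 1 table of FPKM values for 26 libraries and 30186 genes, with 3740 genes at 0 in every library. The submitters' processing notes name featureCounts 2.0.1, SAMtools 1.9, HISAT2 2.1.0 and fastp 0.23.4 without their roles. Genome build, annotation, strand setting and the handling of multiply mapped reads were not given in the sources used here. Library sums of FPKM ran from 419071 to 682165, so levels were not on an equal-sum scale.

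Stages were taken from the sample labels. Whole reads were recovered from the steps of the FPKM values. In small RNA genes, 99.7% to 100.0% of values of up to 20 reads were whole within 0.05 reads. Values of the 6 genes lay within 0.0085 of whole reads. Read totals and gene lengths were chosen so that values came out whole, so this closeness does not test the recovery. Gene lengths could be solved for 22935 of 23577 genes. Of the lengths solved for 635 small RNA genes, 99.5% equalled the reference lengths, from which the read totals were first set. Without molecular identifiers in the reads, counting limits cover counting error only.

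Differences were fitted with limma 3.58.1 (R 4.3.3): lmFit on 8 stage means of log2(FPKM + 1), contrasts.fit, eBayes with trend, 18 residual and 4.6 prior degrees of freedom, two-sided, adjusted within each of 9 contrasts over all tested genes. The fit was tested on simulated data. Alternatives were a pseudocount of 0.1, no filter, TPM, median-ratio and quantile scaling, fits of 2 stages, limma-voom on recovered reads, the replicate number as a block, and leaving out each library.

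The 6 genes and all lists were chosen with earlier results of these data known. Named beside them were 7 context factors, the 3 genes with the highest r for each of the 6, and up to 3 called genes with the largest difference per list and contrast.

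Replicate numbers were checked for pairing: deviations from stage means correlated at a median of 0.004 in 80 same-number pairs of libraries (-0.146 to 0.396) and of -0.005 in 214 others. Values over 0.1 occurred in 13 of the 80 and 21 of the 214. A median cannot show whether some stages were paired, and numbers are used here only to name libraries. The result of 1 gene of the lists is not reported here.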

Additional observations from a re-analysis of the deposited data

Results flagged for a closer look

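At the 8-cell stage, the value of PRDM14 in 8C 3 was 0.209 FPKM (11 reads), set apart from the other 3 libraries, which had 0, 0.0345 and 0.0172 FPKM. Its gap to the nearest of them was 0.835 of the whole range, above Dixon's critical value of 0.829. UTF1 in 8C 2 was 0.102 FPKM (4 reads), with the other 3 libraries at 0, a gap equal to the whole range. With 3 libraries at 0, any value above 0 gives this gap, so for UTF1 it is a description of those 4 reads. The criterion was applied to 16 groups of 4 libraries, and chance alone passes it in about 1 of 20 groups without such ties. Both levels were far below an FPKM of 1.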

How the results depend on the processing

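Of 54 differences of the 6 genes, 18 were called. Under 34 alternatives each, 8 settings and 26 left-out libraries, 15 of the 18 stayed called throughout and none changed sign; the cause of the changes below was not tested. Calls ended for PRDM14 in ExpB-Morula with median-ratio (-0.85) and quantile scaling (-0.93), and for DPPA4 (2.42) and TBX3 (1.20) in 16C-4C when only 2 stages were fitted, which leaves fewer libraries. Calls were gained for UTF1 in Morula-16C with a pseudocount of 0.1 (3.06), TPM (1.23) and voom (5.28), and for DPPA4 in EarlyB-Morula with quantile scaling (1.24) and voom (1.01).

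Sign changes were all in uncalled differences. In 2C-MII they were DPPA4 with a pseudocount of 0.1 (-0.035), median-ratio (-0.16), quantile (-0.21) and voom (-0.057), TBX3 with TPM (0.0096) and voom (0.32), and ZFP42 with median-ratio (-0.0012), quantile (-0.035) and voom (-0.29). Elsewhere they were DPPA4 Morula-16C with TPM (-0.09), UTF1 16C-8C with quantile (0.011) and voom (0.036), and ESRRB (0.01) and TBX3 (0.017) in ExpB-EarlyB with median-ratio scaling. The replicate block turned ZFP42 (-0.096), ESRRB (-0.015) and TBX3 (0.0022) in 2C-MII and ended no call.

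With 1 library left out, ranges that crossed 0 or a limit were, in 2C-MII, -0.0089 to 0.02 for ZFP42, -0.25 to 0.21 for DPPA4 and -0.078 to 0.059 for TBX3. They were -0.40 to 0.69 for DPPA4 4C-2C, -0.66 to 0.44 for DPPA4 and -0.11 to 0.033 for TBX3 in 8C-4C, and -0.035 to 0.025 for UTF1 16C-8C. In Morula-16C they were -0.21 to 0.088 for PRDM14 and -0.073 to 0.59 for DPPA4. In EarlyB-Morula they were 0.75 to 1.01 for ESRRB and 0.67 to 1.23 for DPPA4. The range was -1.27 to -0.68 for UTF1 ExpB-EarlyB and -1.25 to -0.96 for PRDM14 ExpB-Morula.

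Counts of all called genes moved most in 4C-2C, from 1 to 11 (pseudocount), 3 (no filter), 14 (TPM), 41 (median-ratio), 10 (quantile), 0 (2 stages), 15 (voom) and 1 to 49 with 1 library left out. Those of 8C-4C moved from 143 to 221 (pseudocount), 87 (no filter), 0 (2 stages), 81 (replicate block) and 6 to 254 with 1 left out. The 16C-8C count of 1191 became 1949 (pseudocount), 316 (2 stages) and 1979 (voom), the 16C-4C count of 1290 became 162 (2 stages), the ExpB-EarlyB count of 2793 became 4210 (pseudocount), and the 2C-MII count of 1017 became 1653 (TPM) and 217 to 1427 with 1 left out. In the fits of 2 stages, limma gave an unadjusted p under 0.05 to 2135 genes in 4C-2C and 2508 in 8C-4C. Higher genes were 68.8% of 2C-MII calls, and 82.6% with TPM, 40.8% with median-ratio and 45.5% with quantile scaling. With stages numbered 1 (MII) to 8 (ExpB), first detection of UTF1 moved to stage 6 (morula) at an FPKM of 0.1 or a TPM of 1, that of TBX3 to stage 4 (8C) at 0.1 and stage 6 at 5, and that of DPPA4 to stage 5 (16C) at 5. Depth limits the genes near 0: values from 3 reads or fewer cannot be told from absence.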

Other observations

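Genes beside the 6 on the chromosome were looked up after their values were seen, with the order of genes taken from the sheep reference table of assembly ARS-UI_Ramb_v3.0, and are given as levels only. ZFP42 lies next to TRIML2, a TRIM-like protein gene, whose mean was 2.66 FPKM at 8C, 4.52 at 16C, 44.5 in morulae, 94.7 in early and 116 in expanded blastocysts. Its profile had r = 0.879 with ZFP42 over 26 libraries. TRIML1, the next gene along, was at 0.988 FPKM in morulae and at most 0.202 FPKM in any other stage. DPPA4 lies next to DPPA2, and the gene on its other side, NECTIN3, had r = -0.361 with it.

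PRDM14 lies between SLCO5A1 (r = 0.628) and NCOA2 (0.506). NCOA2 was at 15.0 FPKM in EarlyB and 1.68 FPKM at 16C, the stage of the highest PRDM14 mean. ESRRB lies between GPATCH2L (0.891) and VASH1 (-0.116), which stayed at or below 0.06 FPKM. TBX3 lies between MED13L (0.125), which held 3.85 to 4.78 FPKM in every stage, and TBX5 (0.157), at or below 0.106 FPKM throughout. RBM19, the gene beyond TBX5, had r = 0.855 with TBX3 and was at 10.3 FPKM in morulae and 1.5 FPKM at 16C.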
